A study of Homo sapiens with 6 samples.

Results

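The genes described here are the named antisense long noncoding RNAs of DU145 cells: genes whose symbol ends in AS and a number after a hyphen, with a summed count of at least 60 over the 6 libraries. By that rule 316 of the 60623 genes in the deposited table were members, out of 1260 symbols of this form, of which 686 had a count in any library. SLCO4A1-AS1 was left out by the rule. DU145 is an established human prostate carcinoma line, and its genotype is labelled WT. All the cells were grown in RPMI-1640 with serum. The DMSO group (n = 3) received the solvent and the CCS1477 group (n = 3) received CCS1477 at 1 µM, with both groups taken at 24 h. CCS1477, also called inobrodib, blocks the acetyl-lysine pocket (bromodomain) of p300 and CBP, a pair of acetyltransferases. The labels do not say whether the replicates were separate cultures, so each p-value measures the spread between these libraries, which may be technical. A single line with 1 dose and 1 time point limits the groups as a model.

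An antisense RNA gene is named after the gene on the opposite strand, so SLC9A3-AS1 lies against SLC9A3, which is called its sense gene below. Some antisense RNAs start beside the promoter of the sense gene and are transcribed away from it or across it, and others start inside the gene or run into its end. A few are known to act on their sense gene, others act elsewhere in the cell or have no known role, and many are studied in cancer because their levels differ from those in normal tissue. p300 and CBP are coactivators that acetylate histones at enhancers and promoters, and bromodomains bind acetylated lysines.

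Library totals ran from 8286880 to 11956734 estimated counts. At those depths 3 counts, taken as the floor of detection, correspond to 0.251 to 0.362 CPM (counts scaled to one fixed library total), which covers counting error only. Libraries were made from poly-A RNA, which misses antisense RNAs without a tail, and the strandedness of the counting is not given in the sources used here. Where the exons of an antisense RNA and of a gene on the other strand overlap, reads of both may therefore not be told apart. That held for 266 of the 316 members by the GENCODE 29 annotation, in which every member has an entry, while 50 members had no such overlap. The overlap with the opposite gene took a median of 12.4% of a member's exonic bases, over 50% of them in 35 members, and 8 members lay wholly under exons of their sense gene. The epithelial markers KRT8, KRT18, EPCAM and CDH1 summed to 1733 to 1890 TPM (values scaled for gene length as well) in the DMSO libraries and 1698 to 1807 TPM in the CCS1477 libraries. The keratins make up most of that sum, and CDH1 (E-cadherin) fell, from 75.1, 79.5 and 49.3 TPM to 33.7, 30.2 and 29.4 TPM (log2 fold change -1.17, adjusted p = 1.64e-05 by edgeR), while the other 3 did not pass. The prostate markers KLK3 and KLK2 were listed at 0 in all 6. Leukocyte markers PTPRC and CD3E were listed at 0 in all 6 libraries, with CD14 at 1.99 to 4.19 TPM. Of the fibroblast markers DCN was listed at 0 in all 6, PDGFRB was at most 0.41 TPM and COL1A1 was at 3.95 to 10.65 TPM. Of the endothelial markers PECAM1 was listed at 0 in all 6, CDH5 was at most 0.43 TPM and VWF at most 0.05 TPM.

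The stretches around the start sites of 6 members are printed to show where the members described most fully below start: the largest rise, the fall with the smallest adjusted p, and 4 sense-antisense pairs. They are RefSeq sequence of build GRCh38.p14, 250 bases before to 50 after the annotated start, 5′ to 3′ on the strand of the antisense RNA. Capitals mark matches, on either strand, to 5 motifs. The letters searched were TATAAA for the TATA box and GGGCGG for the GC box. The CCAAT box was searched by the letters of its name. For the cAMP response element the letters were TGACGTCA. The AP-1 site, in which any base may stand at N, was searched as TGANTCA. No 2 of these motifs contain each other. The window of SLC9A3-AS1 (chr5:472986-473285, plus strand), the member with the largest rise, holds GC boxes and has a GC content of 82.3%.
SLC9A3-AS1: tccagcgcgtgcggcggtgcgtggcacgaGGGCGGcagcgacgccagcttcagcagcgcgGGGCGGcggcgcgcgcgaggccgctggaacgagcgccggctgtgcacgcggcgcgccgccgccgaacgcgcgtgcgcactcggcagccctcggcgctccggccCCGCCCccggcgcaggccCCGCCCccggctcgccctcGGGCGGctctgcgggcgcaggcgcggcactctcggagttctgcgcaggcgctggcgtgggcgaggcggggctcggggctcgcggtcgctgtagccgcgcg
CCNT2-AS1 (chr2:134918557-134918856, minus strand) starts against the cyclin gene CCNT2, and 285 of its 300 bases are also in the window of CCNT2.
CCNT2-AS1: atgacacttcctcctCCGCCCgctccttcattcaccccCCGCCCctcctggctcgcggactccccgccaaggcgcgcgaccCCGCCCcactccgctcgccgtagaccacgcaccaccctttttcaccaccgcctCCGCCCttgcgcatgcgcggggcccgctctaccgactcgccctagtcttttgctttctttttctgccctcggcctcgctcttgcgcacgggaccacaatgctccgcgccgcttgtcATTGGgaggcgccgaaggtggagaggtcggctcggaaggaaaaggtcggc
ELF3-AS1 (chr1:202010304-202010603, minus strand) shares 267 bases with the window of ELF3 and holds a TATA box and a CCAAT box.
ELF3-AS1: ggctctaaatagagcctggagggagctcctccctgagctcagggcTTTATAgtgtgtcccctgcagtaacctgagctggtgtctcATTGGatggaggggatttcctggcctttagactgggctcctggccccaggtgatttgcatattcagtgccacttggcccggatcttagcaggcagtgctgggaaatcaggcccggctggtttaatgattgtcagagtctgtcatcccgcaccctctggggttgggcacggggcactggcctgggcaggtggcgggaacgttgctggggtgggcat
PRKAG2-AS1 (chr7:151876792-151877091, plus strand) shares 26 bases with the window of PRKAG2 and holds none of the 5 motifs.
PRKAG2-AS1: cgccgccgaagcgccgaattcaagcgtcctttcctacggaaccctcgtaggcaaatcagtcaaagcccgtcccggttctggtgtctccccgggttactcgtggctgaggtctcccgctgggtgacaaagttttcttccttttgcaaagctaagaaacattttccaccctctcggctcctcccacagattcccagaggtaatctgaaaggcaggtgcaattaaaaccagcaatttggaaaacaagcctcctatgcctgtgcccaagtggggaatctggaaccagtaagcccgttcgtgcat
ADIRF-AS1 (chr10:86971191-86971490, minus strand) holds GC boxes and an AP-1 match.
ADIRF-AS1: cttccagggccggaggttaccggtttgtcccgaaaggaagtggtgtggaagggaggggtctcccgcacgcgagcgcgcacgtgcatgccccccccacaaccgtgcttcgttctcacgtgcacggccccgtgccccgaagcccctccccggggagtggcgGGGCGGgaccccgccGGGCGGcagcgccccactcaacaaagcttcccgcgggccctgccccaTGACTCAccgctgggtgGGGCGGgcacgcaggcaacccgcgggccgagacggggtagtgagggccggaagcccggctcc
MCM3AP-AS1 (chr21:46228981-46229280, plus strand) holds 7 GC boxes and 1 CCAAT box, and shares no base with the window of MCM3AP.
MCM3AP-AS1: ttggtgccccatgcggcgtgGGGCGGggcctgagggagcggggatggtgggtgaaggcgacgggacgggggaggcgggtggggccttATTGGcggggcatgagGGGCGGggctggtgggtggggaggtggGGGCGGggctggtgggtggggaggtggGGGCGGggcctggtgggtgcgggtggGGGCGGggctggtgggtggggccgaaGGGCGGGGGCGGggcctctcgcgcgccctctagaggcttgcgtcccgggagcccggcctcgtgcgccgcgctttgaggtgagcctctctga
A match is a run of letters and not a measured binding site.

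Most of the antisense RNAs were present at low levels. The median level in DMSO was 4.44 TPM, a per-length unit, with quartiles of 2.06 and 9.76 TPM and a range of 0.277 to 536.2 TPM. Of the 316 members, 78 were above 10 TPM in DMSO, 173 were below 5 TPM and 28 were below 1 TPM. The members summed to 3432 ± 124 TPM (SD, n = 3) with DMSO and to 3467 ± 111 TPM (SD, n = 3) with CCS1477, a difference smaller than the spread between libraries. They lay on 23 chromosomes, with 32 on chromosome 1 and 30 on chromosome 3.

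The 6 members with the highest mean level over the 6 libraries were VIM-AS1, PCBP1-AS1, PXN-AS1, SLC9A3-AS1, DDIT4-AS1 and SMARCA5-AS1. VIM-AS1, opposite the intermediate filament gene VIM, had 686, 558 and 365 TPM in the DMSO libraries and 536, 593 and 656 TPM in the CCS1477 libraries. Its groups overlapped, its DMSO libraries spread most among these 6, and 641 of its 1992 exonic bases lie under exons of VIM, itself at 1030 TPM with DMSO. PCBP1-AS1, opposite a gene for a poly(C) RNA-binding protein, had 199.6, 188 and 200.3 TPM in the DMSO libraries and 189, 208 and 192 TPM in the CCS1477 libraries, and these groups overlapped too. PXN-AS1, opposite the focal adhesion gene PXN, had 128, 143 and 103 TPM in the DMSO libraries and 125, 126 and 119 TPM in the CCS1477 libraries. None of those 3 passed the test, at log2 fold changes of 0.07, -0.06 and -0.02. DDIT4-AS1, opposite the stress-induced mTORC1 inhibitor gene DDIT4, had 78.9 ± 9.81 TPM with DMSO and 64 ± 5.78 TPM with CCS1477 (SD, n = 3), with a log2 fold change of -0.40 and an adjusted p of 0.0738 by edgeR's quasi-likelihood test. All 847 of its exonic bases lie under exons of DDIT4, and without DMSO replicate 2 it passed the test with a log2 fold change of -0.51 (adjusted p = 0.0193). SMARCA5-AS1, opposite the chromatin remodelling ATPase gene SMARCA5, had 58.1 ± 5.34 TPM with DMSO and 77.1 ± 7.16 TPM with CCS1477 and also missed the threshold (log2 fold change 0.32, adjusted p = 0.0789).

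With CCS1477, 11 of the 305 tested members rose (3.61%) and 28 fell (9.18%), by edgeR's quasi-likelihood test over all genes with a Benjamini-Hochberg adjusted p under 0.05. In bulk RNA, fewer cells with an RNA and less of it per cell cannot be told apart. Over all 14928 tested genes the shares were 7.23% higher and 10.7% lower. In genes of the same range of CPM as the middle 80% of the tested members, 5.81% were higher and 8.99% lower. In this fit the share of members that fell was thus near the background, and the share that rose was below it. Whether either share differs from that of other genes was not tested. The other 266 tested members did not pass, with log2 fold changes from -1.46 to 1.12, and 196 of them lay within 0.5 of 0. Another 11 members were under the filter on low counts and were not tested. Of the tested members, 8 had passed that filter through 1 group only, and 5 of these were among the falls: PAPPA-AS1, TMEM51-AS1, HORMAD2-AS1, MNX1-AS1 and SAPCD1-AS1, the last 2 named after their values were seen. They passed only through DMSO, where they are high, so they had to differ in that direction. When all 316 were fitted without a filter, 17 were higher and 29 lower, against 5.74% and 7.34% of 25155 genes. Leaving out single libraries moved these counts and the shares over all tested genes. Rises came to 7 without DMSO replicate 1, DMSO replicate 2 or CCS1477 replicate 2, where 3.65%, 7.18% and 3.21% of all genes rose. They came to 18 without DMSO replicate 3, against 8.55% of all genes. Falls came to 17 without DMSO replicate 1, 18 without CCS1477 replicate 1 and 15 without CCS1477 replicate 2. Of all genes 6.40%, 7.59% and 6.08% fell in these fits. On log2(TPM + 1) with limma 6 of 305 rose and 10 fell, against 1.96% and 2.86% of all tested genes.

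All 39 that passed had CPM groups that did not overlap. Among tested members as a whole, 28 (9.18%) had every CCS1477 library above every DMSO library and 58 (19.02%) had every one below, against 16.5% and 19.3% of all tested genes (35.9% in either direction). The median log2 fold change was -0.08 in tested members and -0.00 over all tested genes, and 58.4% of members and 50.4% of all genes had values below 0. That median was -0.35 in the 48 tested members without opposite-strand exon overlap and 0.0036 in the 178 members left by a stricter minimum count of 30. Changes of more than 2-fold came to 6 rises (1.97%) and 18 falls (5.90%), against 1.11% and 3.07% of all tested genes. For this 2-fold cut the share of all genes was not matched to the members in CPM, as was done for the calls above. Most members were at low levels, and ARHGEF26-AS1 did not pass at a log2 fold change of -1.46 (adjusted p = 0.0901 by edgeR). The difference between these shares was not tested, so it cannot be read as a result about antisense RNAs. Of the 5 called members that passed the filter through DMSO alone, at least PAPPA-AS1, TMEM51-AS1 and HORMAD2-AS1 are among the 18 falls. Members of that kind had to differ in that direction. Genes of that kind were not removed from the shares of all genes either. At the edge of the membership rule, ZRANB2-AS1 had a sum of 60 counts, ATP2B1-AS1 and PHKA2-AS1 had 61, and none of these was tested. Just below it were HDAC2-AS2 with 58 counts, GLYCTK-AS1 with 59 and USP27X-AS1 with 59.

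**Figure D1:**
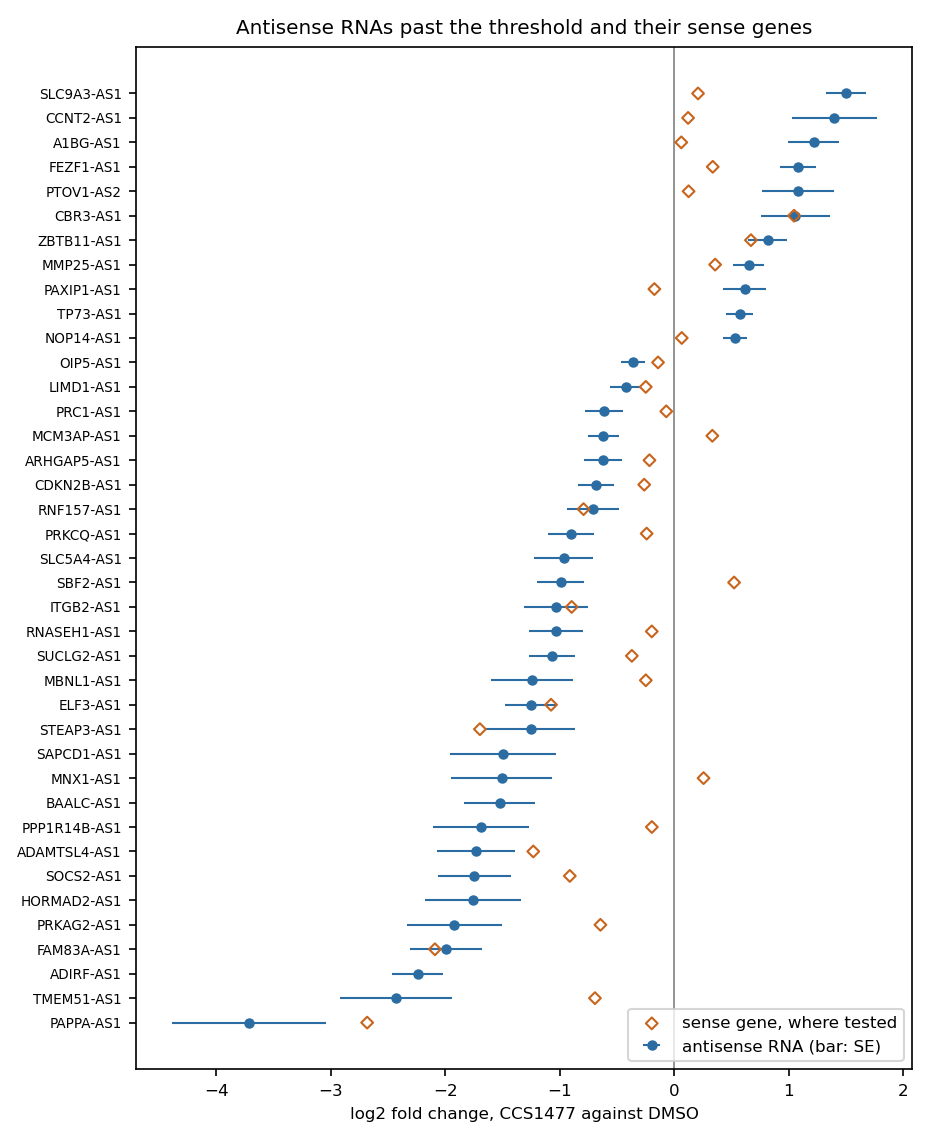
Log2 fold change with CCS1477 (horizontal axis) of the 39 antisense RNAs that passed the test, 1 row each, with bars of 1 standard error. The 28 falls reach -3.72 in PAPPA-AS1 and the 11 rises reach 1.5 in SLC9A3-AS1.

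SLC9A3-AS1 had the largest rise and was the only one of the 6 most abundant members that passed the test. The gene (chr5:473236-480884 in the deposited coordinates) lies against SLC9A3, which encodes a sodium-hydrogen exchanger of gut and kidney epithelium. It had 23.4, 20.3 and 31.4 CPM in the DMSO libraries and 55.5, 75.7 and 79.9 CPM in the CCS1477 libraries. Every CCS1477 library was above every DMSO library, and the lowest of them, replicate 1, was still well above the highest DMSO library. The log2 fold change was 1.5 ± 0.174 (adjusted p = 0.000156). In TPM the group means went from 42.7 ± 4.31 to 129.8 ± 21.6 TPM (SD, n = 3). SLC9A3 itself was lower in level, at 5.0 TPM with DMSO and 6.45 TPM with CCS1477, and did not pass the test (log2 fold change 0.21, adjusted p = 0.418). Of the 4302 exonic bases of the antisense RNA, 830 lie under exons of SLC9A3.

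A1BG-AS1, CCNT2-AS1, FEZF1-AS1 and PTOV1-AS2 rose while their sense genes did not pass the test. A1BG-AS1, opposite a gene for a plasma glycoprotein, had 4.18, 5.22 and 5.89 CPM in the DMSO libraries and 9.31, 11.7 and 14.4 CPM in the CCS1477 libraries. These groups were apart, with a log2 fold change of 1.22 ± 0.224 (adjusted p = 0.00325), beside 0.06 (adjusted p = 0.927) for A1BG. Of the 2793 exonic bases of A1BG-AS1, 781 lie under exons of A1BG. It also shares 827 exonic bases with ZNF497 on the other strand, which had a log2 fold change of 0.72 (adjusted p = 0.0607). FEZF1-AS1, an RNA studied as a promoter of tumour growth, lies against FEZF1, a transcription factor gene of forebrain development. It had 10.1, 8.72 and 8.47 CPM in the DMSO libraries and 17.8, 19.3 and 21 CPM in the CCS1477 libraries, with little spread within either group. Its log2 fold change was 1.08 ± 0.155 (adjusted p = 0.000674), and that of FEZF1 was 0.34 (adjusted p = 0.615).

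CCNT2-AS1 is the RNA whose printed window is nearly the same stretch as that of CCNT2, the gene of cyclin T2, a partner of the elongation kinase CDK9. It had 1.53, 1.03 and 1.96 CPM in the DMSO libraries and 2.81, 4.06 and 4.91 CPM in the CCS1477 libraries. The CCS1477 libraries were all above the DMSO libraries, although the levels were a few CPM, and the log2 fold change was 1.4 ± 0.371 (adjusted p = 0.0227). CCNT2 had 30.01, 37.5 and 29.7 CPM in the DMSO libraries and 37.7, 35.4 and 32.8 CPM in the CCS1477 libraries, groups that overlapped, with a log2 fold change of 0.12 (adjusted p = 0.561). Of the 910 exonic bases of CCNT2-AS1, 148 lie under exons of CCNT2. PTOV1-AS2, opposite a gene named for its overexpression in prostate tumours, had 2.39, 2.05 and 3.07 CPM in the DMSO libraries and 3.7, 5.1 and 6.97 CPM in the CCS1477 libraries and a log2 fold change of 1.08 ± 0.316 (adjusted p = 0.0342). The calls of CCNT2-AS1 and PTOV1-AS2 were each lost without any 1 of 4 libraries, while the direction stayed the same. Without DMSO replicate 1 or 2 or CCS1477 replicate 2 or 3, the edgeR adjusted p was 0.0551 to 0.108 for CCNT2-AS1 and 0.0733 to 0.160 for PTOV1-AS2, at log2 fold changes of 1.19 to 1.43 and 0.83 to 1.10.

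Smaller rises were found for MMP25-AS1, PAXIP1-AS1 and TP73-AS1. MMP25-AS1, opposite a membrane-type metalloproteinase gene, had 14.8, 14 and 13.5 CPM in the DMSO libraries and 21.2, 23.7 and 21.6 CPM in the CCS1477 libraries, with a gap between the groups and a log2 fold change of 0.65 ± 0.133 (adjusted p = 0.00616). TP73-AS1, opposite the p53 family gene TP73, had 36.2, 34.4 and 42.2 CPM in the DMSO libraries and 51.2, 57.7 and 58.2 CPM in the CCS1477 libraries, with a log2 fold change of 0.57 ± 0.115 (adjusted p = 0.00556). TP73 was too low to be tested, at 1.04 CPM with DMSO and 0.916 CPM with CCS1477. PAXIP1-AS1, opposite the gene of PTIP, a part of the MLL3/MLL4 histone methyltransferase complexes, had 7.5, 5.82 and 7.86 CPM in the DMSO libraries and 10.9, 11.3 and 10.1 CPM in the CCS1477 libraries, with a log2 fold change of 0.61 ± 0.189 (adjusted p = 0.0425). Its call was lost without any 1 library other than DMSO replicate 3 (0.50 to 0.67, adjusted p = 0.0804 to 0.140). The eleventh rise, outside the rule for named genes and named after its values were seen, was NOP14-AS1, opposite a gene of ribosome assembly. It had 52, 50.5 and 48.5 CPM in the DMSO libraries and 66, 81.7 and 70.7 CPM in the CCS1477 libraries, groups that were apart, with a log2 fold change of 0.53 ± 0.106 (adjusted p = 0.00534). On log2(TPM + 1) with limma, MMP25-AS1, PAXIP1-AS1 and TP73-AS1 did not pass (adjusted p = 0.341, 0.112 and 0.0795).

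**Figure D2:**
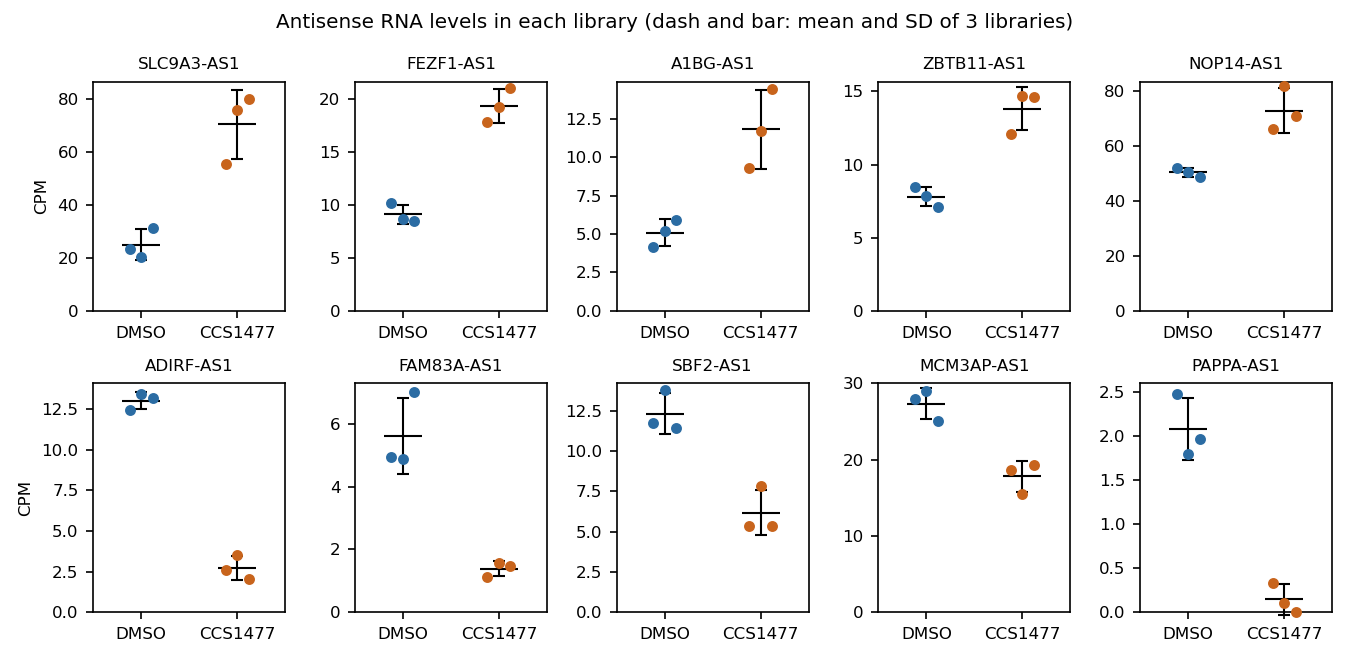
CPM in each library (points; short line, group mean; bar, SD; n = 3) of 10 antisense RNAs, with DMSO and CCS1477 side by side on linear axes that start at 0. The groups do not overlap in any panel.

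Among the falls, ADIRF-AS1 had the smallest adjusted p of all members. It lies at chr10:86965345-86971311 against ADIRF, a gene named for a factor that promotes adipogenesis. ADIRF-AS1 had 12.4, 13.4 and 13.1 CPM in the DMSO libraries and 2.58, 3.54 and 2.06 CPM in the CCS1477 libraries. The DMSO libraries were close to one another and all lay far above the CCS1477 libraries, with a log2 fold change of -2.24 ± 0.226 (adjusted p = 5.52e-05). ADIRF was below the filter, at 0.658 CPM with DMSO and 0.186 CPM with CCS1477, so its change was not tested. Of the 5748 exonic bases of ADIRF-AS1, 917 lie under exons of ADIRF. ADIRF-AS1, A1BG-AS1, ADAMTSL4-AS1, FAM83A-AS1, FEZF1-AS1, NOP14-AS1 and SLC9A3-AS1 were the 7 members that passed under every one of the 14 other settings tried at the same threshold.

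BAALC-AS1 and HORMAD2-AS1 fell opposite sense genes too low to be tested, and PPP1R14B-AS1 fell while PPP1R14B did not pass the test (-0.20, adjusted p = 0.355). BAALC-AS1, opposite a gene known from acute leukaemia, had 4.95, 8.04 and 4.67 CPM in the DMSO libraries and 2.24, 2.19 and 1.71 CPM in the CCS1477 libraries, all below the DMSO libraries, with a log2 fold change of -1.52 ± 0.31 (adjusted p = 0.00599). HORMAD2-AS1, opposite a gene of the meiotic chromosome axis, had 2.3, 2.39 and 2.46 CPM in the DMSO libraries and 0.449, 0.833 and 0.80 CPM in the CCS1477 libraries, with a log2 fold change of -1.76 ± 0.419 (adjusted p = 0.0134). It too passed the filter through the DMSO libraries alone, its CCS1477 values were near the floor of 3 counts, and without CCS1477 replicate 1 the adjusted p was 0.0599 (-1.52). PPP1R14B-AS1, opposite a gene for an inhibitor of protein phosphatase 1, had 4.35, 3.51 and 8.47 CPM in the DMSO libraries and 1.01, 1.56 and 2.4 CPM in the CCS1477 libraries, with a log2 fold change of -1.69 ± 0.419 (adjusted p = 0.0166). DMSO replicate 3 was high for it, and the call was lost without CCS1477 replicate 1 or 2 (-1.64 to -1.43, adjusted p = 0.0650 to 0.0658). The further 11 falls outside the rule for named genes had log2 fold changes from -1.51 to -0.42.

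In 10 pairs, those of PAPPA-AS1 and TMEM51-AS1 among them, the antisense RNA and its sense gene both fell, and in 2 pairs both rose. Of 275 tested sense genes, 24 were higher (8.73%) and 29 lower (10.5%), against 7.23% and 10.7% of all genes. Among the 28 tested antisense RNAs whose sense gene fell, 10 fell (35.7%) and none rose. PAPPA-AS1 and TMEM51-AS1, both among these 10, passed the filter through DMSO alone, which fixed their direction. Among the 25 whose sense gene rose, 2 rose and 2 fell. Where the sense gene did not pass, 8 of 214 rose (3.74%) and 11 fell (5.14%). Because shared exon bases can put the same reads in both genes, the exon overlap is given with each pair, and these shares were not tested.

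PAPPA-AS1 (chr9:116398157-116400606) had the largest log2 fold change of all tested members. PAPPA encodes a secreted metalloproteinase that cleaves IGF-binding proteins. The antisense RNA had 2.47, 1.8 and 1.96 CPM in the DMSO libraries and 0.337, 0.104 and 0 CPM in the CCS1477 libraries. In counts these were 29, 21 and 16 with DMSO and 3, 1 and 0 with CCS1477, so the CCS1477 libraries were at or under the floor. The summed rate with CCS1477 was 0.0702 of that with DMSO, with an exact 95% counting interval of 0.0186 to 0.188. The fitted log2 fold change of -3.72 ± 0.672 (adjusted p = 0.00301) depends on how a near-empty group is handled and was -1.03 on log2(TPM + 1). PAPPA went from 10.4 ± 1.57 to 1.63 ± 0.419 CPM, with a log2 fold change of -2.68 ± 0.267 (adjusted p = 5.06e-05). All 2450 exonic bases of PAPPA-AS1 lie under exons of PAPPA. The RNA was tested only because its DMSO libraries passed the filter on low counts.

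FAM83A-AS1, on chromosome 8, fell beside FAM83A without any exon overlap between them. FAM83A encodes a protein of growth factor receptor signalling that is often high in carcinomas. The antisense RNA had 4.95, 4.87 and 7.0 CPM in the DMSO libraries and 1.12, 1.56 and 1.49 CPM in the CCS1477 libraries, and no DMSO library came near the CCS1477 range. FAM83A had 445, 418 and 385 CPM in the DMSO libraries and 99.97, 91.2 and 102 CPM in the CCS1477 libraries, also with a wide gap. The log2 fold changes were -1.99 ± 0.315 (adjusted p = 0.00132) for the antisense RNA and -2.09 ± 0.0932 (adjusted p = 1.31e-07) for the sense gene, a difference smaller than the standard error of the first.

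TMEM51-AS1, PRKAG2-AS1, SOCS2-AS1 and ADAMTSL4-AS1 also fell together with their sense genes. TMEM51-AS1 had 1.71, 3.16 and 3.68 CPM in the DMSO libraries and 0.337, 0.521 and 0.686 CPM in the CCS1477 libraries, with a log2 fold change of -2.43 ± 0.487 (adjusted p = 0.00546), beside -0.69 ± 0.161 (adjusted p = 0.012) for TMEM51, a gene for a membrane protein. Like PAPPA-AS1, it passed the filter on low counts through the DMSO libraries alone. Only 253 of its 7873 exonic bases lie under exons of TMEM51, but 3452 lie under exons of KAZN, which had a log2 fold change of -0.85 (adjusted p = 0.0216). PRKAG2-AS1, opposite the gene of a regulatory subunit of the energy sensor AMPK, had 3.24, 3.34 and 2.7 CPM in the DMSO libraries and 0.673, 0.521 and 1.26 CPM in the CCS1477 libraries, with a log2 fold change of -1.92 ± 0.414 (adjusted p = 0.0081). PRKAG2 had 40.2, 40.4 and 38.8 CPM in the DMSO libraries and 28.2, 20.9 and 27.4 CPM in the CCS1477 libraries, with a log2 fold change of -0.64 ± 0.131 (adjusted p = 0.0060). Both genes of that pair were apart between the groups, and the log2 ratio of antisense to sense TPM, with 0.1 TPM added to each, was -2.22, -2.17 and -2.64 with DMSO and -4.36, -3.96 and -3.11 with CCS1477. The ratio groups did not overlap either, whereas those of TMEM51-AS1 did, at -5.01, -3.88 and -4.15 with DMSO and -5.79, -5.25 and -4.61 with CCS1477. In PRKAG2-AS1 84 of 1163 exonic bases are shared with PRKAG2. SOCS2-AS1, opposite a gene for a feedback inhibitor of cytokine signalling, had 4.01, 4.1 and 4.54 CPM in the DMSO libraries and 1.23, 1.25 and 1.26 CPM in the CCS1477 libraries, with a log2 fold change of -1.74 ± 0.318 (adjusted p = 0.00314), and SOCS2 had -0.91 ± 0.13 (adjusted p = 0.000654). ADAMTSL4-AS1, opposite a gene for a secreted matrix protein, had 4.01, 3.85 and 5.03 CPM in the DMSO libraries and 1.46, 1.46 and 0.914 CPM in the CCS1477 libraries, with a log2 fold change of -1.73 ± 0.341 (adjusted p = 0.00496), and ADAMTSL4 had -1.23 ± 0.144 (adjusted p = 0.000166). Exon bases shared with the sense gene were 277 of 3816 in SOCS2-AS1 and 736 of 2622 in ADAMTSL4-AS1. TMEM51-AS1 and SOCS2-AS1 did not pass on log2(TPM + 1) with limma (-0.57 and -0.79, adjusted p = 0.129 and 0.0853), nor did BAALC-AS1 (adjusted p = 0.133).

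ELF3-AS1, ITGB2-AS1, STEAP3-AS1 and RNF157-AS1 completed the falling pairs. ELF3 encodes an epithelial ETS transcription factor, and its window shares most of the ELF3-AS1 sequence printed above. ELF3-AS1 had 10.1, 10.01 and 11.1 CPM in the DMSO libraries and 3.14, 5.21 and 4.69 CPM in the CCS1477 libraries, groups that were apart, with a log2 fold change of -1.25 ± 0.223 (adjusted p = 0.00273). ELF3 went from 59.5 ± 12.3 to 28.1 ± 2.22 CPM, with a log2 fold change of -1.08 ± 0.148 (adjusted p = 0.00051). Of the 5569 exonic bases of ELF3-AS1, 664 lie under exons of ELF3. On log2(TPM + 1) ELF3-AS1 did not pass (-0.50, adjusted p = 0.201). ITGB2-AS1, opposite the leukocyte integrin gene ITGB2, had 5.8, 4.45 and 7.49 CPM in the DMSO libraries and 3.03, 2.6 and 2.97 CPM in the CCS1477 libraries. Its log2 fold change was -1.03 ± 0.278 (adjusted p = 0.0242), beside -0.90 ± 0.161 (adjusted p = 0.00289) for ITGB2. STEAP3-AS1, opposite the ferrireductase gene STEAP3, had a log2 fold change of -1.25 ± 0.391 (adjusted p = 0.045), beside -1.70 ± 0.145 (adjusted p = 1.68e-05) for its sense gene. For RNF157-AS1, opposite a ubiquitin ligase gene, the values were -0.71 ± 0.227 (adjusted p = 0.0494) and -0.79 ± 0.145 (adjusted p = 0.00321) for RNF157. These 3 RNAs share 303 of 2438, 500 of 3218 and 360 of 2283 exonic bases with the sense gene. Their calls were weak. STEAP3-AS1 lost it without any 1 library (adjusted p = 0.0658 to 0.173), ITGB2-AS1 without any but DMSO replicate 2 (0.0578 to 0.0940) and RNF157-AS1 without any but CCS1477 replicate 1 (0.0610 to 0.177), by edgeR's quasi-likelihood test.

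ZBTB11-AS1 and CBR3-AS1 were the pairs in which both genes rose. ZBTB11-AS1, opposite a zinc finger transcription factor gene, had 8.44, 7.87 and 7.12 CPM in the DMSO libraries and 12.1, 14.7 and 14.6 CPM in the CCS1477 libraries, with every CCS1477 library above every DMSO library. Its log2 fold change was 0.82 ± 0.171 (adjusted p = 0.00694), beside 0.67 ± 0.107 (adjusted p = 0.00138) for ZBTB11, and 891 of its 2743 exonic bases lie under exons of ZBTB11. CBR3-AS1, opposite a carbonyl reductase gene, had 4.01, 2.65 and 5.77 CPM in the DMSO libraries and 5.95, 10.1 and 9.37 CPM in the CCS1477 libraries. Its groups were apart by little, at 5.77 against 5.95 CPM, and the log2 fold change was 1.06 ± 0.303 (adjusted p = 0.0316). CBR3 had a log2 fold change of 1.05 ± 0.21 (adjusted p = 0.00539), and 493 of the 8459 exonic bases of CBR3-AS1 are shared with it. The call of CBR3-AS1 was lost without DMSO replicate 1 or 2 or CCS1477 replicate 2 or 3 (0.82 to 1.05, adjusted p = 0.0627 to 0.132), and neither RNA passed on log2(TPM + 1) with limma (adjusted p = 0.0608 for ZBTB11-AS1 and 0.0853 for CBR3-AS1).

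**Figure D3:**
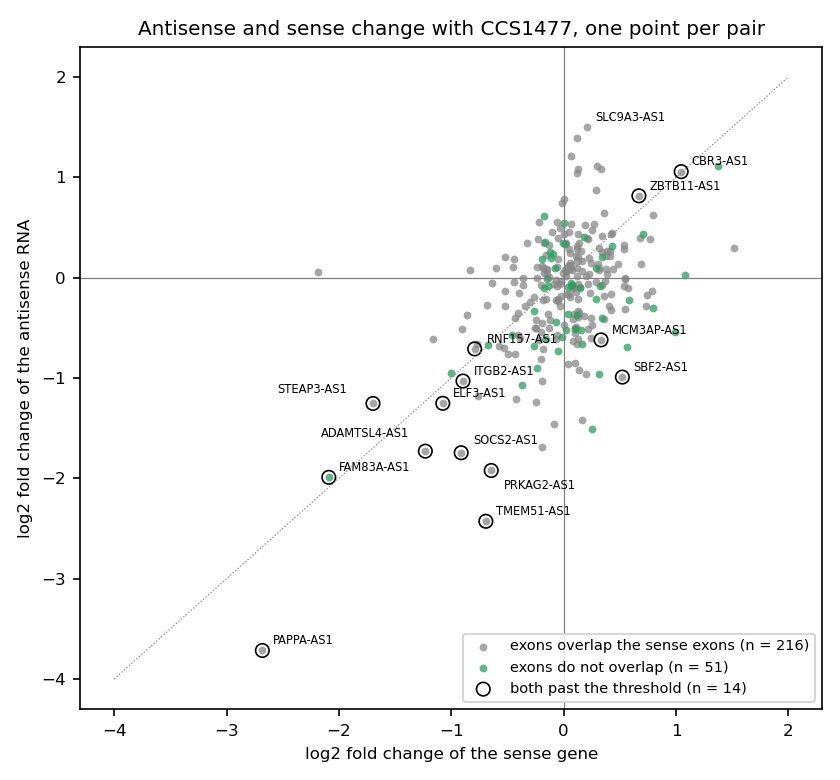
Log2 fold change of the sense gene (horizontal axis) against that of its antisense RNA (vertical axis) in the 267 pairs with both genes tested. Circled points are the 14 pairs in which both passed, 12 with the same sign and 2 (SBF2 and MCM3AP) with opposite signs, and SLC9A3-AS1 is labelled as the largest rise; colour shows whether the exons overlap, and the dotted line marks equal change.

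In 2 pairs the antisense RNA fell while the sense gene rose. SBF2-AS1 (chr11:9758268-9811335) lies against SBF2, the gene of a catalytically inactive myotubularin. It had 11.8, 13.8 and 11.4 CPM in the DMSO libraries and 5.39, 7.81 and 5.37 CPM in the CCS1477 libraries, and SBF2 had 19.4, 21.2 and 19.2 CPM in the DMSO libraries and 30.4, 25.5 and 30.1 CPM in the CCS1477 libraries. In both genes the groups were apart, in opposite directions, with log2 fold changes of -0.99 ± 0.204 (adjusted p = 0.00621) and 0.52 ± 0.128 (adjusted p = 0.0154). The log2 ratio of antisense to sense TPM was -0.01, -0.18 and 0.17 with DMSO and -1.69, -0.86 and -1.36 with CCS1477. The 2 RNAs were thus near equal per length in the DMSO libraries, and the sense RNA was the higher in the CCS1477 libraries.

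MCM3AP-AS1 (chr21:46229196-46259390) lies against MCM3AP, which encodes a scaffold of nuclear mRNA export. It had 28, 28.9 and 25 CPM in the DMSO libraries and 18.6, 15.5 and 19.3 CPM in the CCS1477 libraries, and MCM3AP had 186, 196 and 191 CPM in the DMSO libraries and 228, 240.2 and 255 CPM in the CCS1477 libraries. All CCS1477 libraries were below the DMSO libraries for the antisense RNA and above them for the sense gene, with log2 fold changes of -0.62 ± 0.136 (adjusted p = 0.00886) and 0.33 ± 0.0827 (adjusted p = 0.0164). The log2 ratio of TPM was -2.49, -2.16 and -2.3 with DMSO and -3.0, -3.5 and -3.09 with CCS1477, and these groups did not overlap. Exons shared between the strands made up 1495 of 4644 exonic bases of SBF2-AS1 and 1427 of 7605 of MCM3AP-AS1. Without CCS1477 replicate 2 MCM3AP-AS1 missed the threshold (-0.53, adjusted p = 0.0571), and neither antisense RNA passed on log2(TPM + 1) with limma (adjusted p = 0.0706 for SBF2-AS1 and 0.169 for MCM3AP-AS1).

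**Figure D4:**
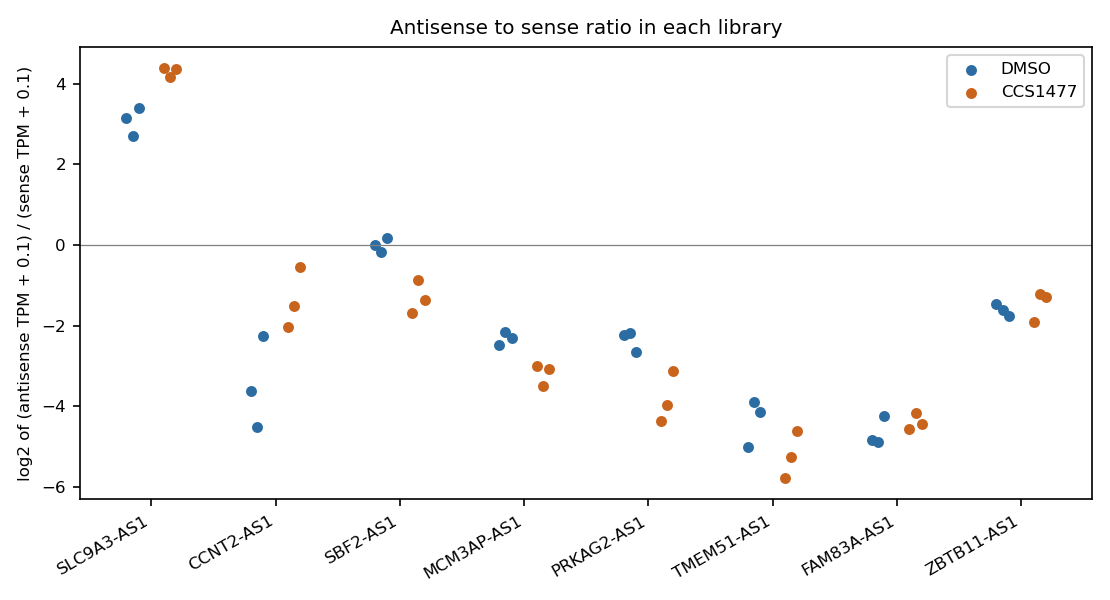
Log2 of antisense over sense TPM, with 0.1 TPM added to each, in every library of 8 pairs (1 point a library, 3 a group; horizontal line, equal TPM). In SBF2, MCM3AP and PRKAG2 the ratio is lower in each CCS1477 library than in each DMSO library, in SLC9A3 and CCNT2 it is higher, and in TMEM51, FAM83A and ZBTB11 the groups overlap.

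Over the 267 pairs with both genes tested, this ratio separated the groups in 52 (19.5%), upward in 21 and downward in 31. CPM alone separated the groups in 35.9% of all tested genes, and in 9.18% of tested members upward and 19.02% downward. These are shares of single genes, a measure unlike a ratio of 2 TPM values, so the shares cannot be compared directly. With any 1 library left out, which makes separation easier, the ratio separated 74 to 87 pairs. SLC9A3-AS1 had ratios of 3.15, 2.71 and 3.39 with DMSO and 4.4, 4.16 and 4.36 with CCS1477, so that the antisense RNA was above its sense gene in all libraries and more so with CCS1477. CCNT2-AS1 was below CCNT2 in all libraries, at -3.62, -4.53 and -2.25 with DMSO and -2.03, -1.52 and -0.55 with CCS1477. The median antisense RNA was at 23.6% of its sense gene's TPM in DMSO. An antisense RNA was above the sense gene in 80 pairs with DMSO, in 75 with CCS1477 and in all 6 libraries in 57. In 9 pairs the sense gene was listed at 0 TPM in the DMSO libraries, as for FGD5-AS1.

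**Figure D5:**
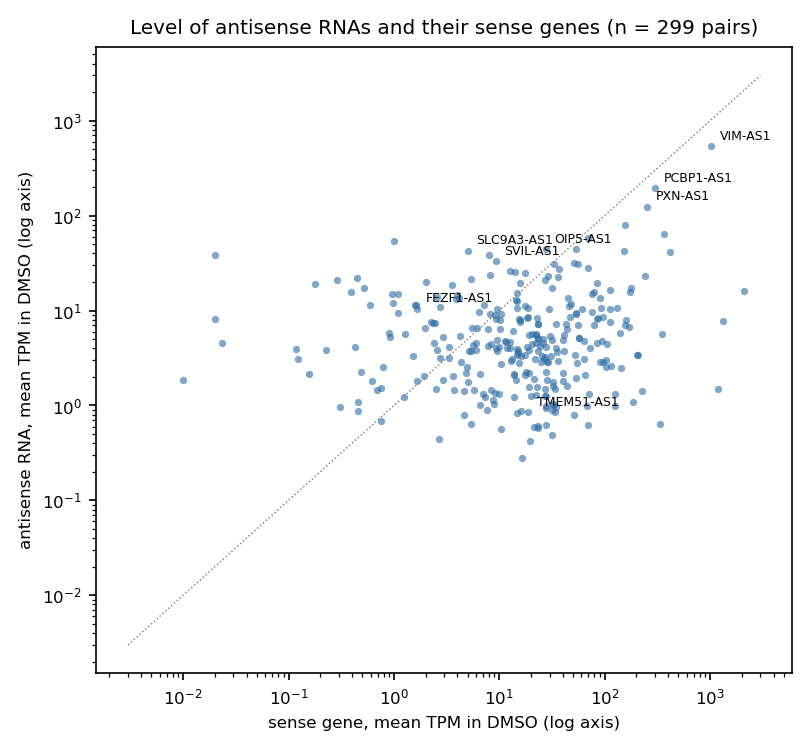
Mean TPM in DMSO of the sense gene (horizontal axis) and the antisense RNA (vertical axis), both on log scales, for the 299 pairs whose sense gene was above 0. Most points lie below the line of equal level, and SLC9A3-AS1 lies above it.

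The arrangement of a pair was read from the deposited coordinates and strands for the 308 members whose sense gene is in the table. In 126 pairs the start sites were within 2000 bases of each other (head to head), 76 pairs overlapped at their ends (tail to tail), and in 75 one gene lay inside the other's span. Another 30 overlapped at starts that were over 2000 bases apart, a class added after the coordinates were seen, and 1 pair was apart. Of the 123 head-to-head RNAs tested 3 rose and 10 fell, of 73 tail-to-tail RNAs 2 rose and 9 fell, and of 72 inside or around the sense gene 4 rose and 7 fell. The background was 7.23% for rises and 10.7% for falls. Of 60 tested members without exon overlap with the sense gene, 1 rose and 7 fell, and of 237 with such overlap, 10 rose and 21 fell. Differences between these classes were not tested.

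Across the 267 pairs, the antisense and sense log2 fold changes had a Pearson r of 0.504 and a Spearman rho of 0.353. The points share libraries and, in most pairs, exon bases, and genes are not independent replicates, so no test is given. The sign was the same in 160 pairs (59.9%). Without PAPPA-AS1 and FAM83A-AS1 r was 0.402 and rho 0.338. By arrangement r was 0.396 (121 pairs) head to head, 0.405 (66 pairs) tail to tail and 0.751 (57 pairs) inside or around the gene, the last being 0.503 without those 2 members. In the 51 pairs without shared exon bases r was 0.479 and rho 0.223, and r was 0.296 without FAM83A-AS1. In the 216 with shared bases r was 0.520 and rho 0.396. The same sign was found in 47.1% of pairs without and 63.0% of pairs with shared exon bases, and the part of shared reads in these values was not tested.

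Some sense genes moved without a called change of their antisense RNA, in 21 pairs upward and in 19 downward. AFAP1-AS1, an RNA often studied in carcinomas, lies against AFAP1, a gene for an actin filament-associated protein. AFAP1 fell, with a log2 fold change of -1.17 ± 0.0963 (adjusted p = 1.25e-05), while AFAP1-AS1 had -0.61 and did not pass (adjusted p = 0.291). That is no test of a difference between the 2 genes.

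RefSeq start windows were matched to 219 members. Their median GC content was 63.7%, with 23 CpG dinucleotides, against 58.3% and 14 in all 27305 windows. GC boxes were found in 58.0% of member windows and 44.6% of all windows, TATA boxes in 6.85% and 11.95%, CCAAT boxes in 32.9% and 35.7%, cAMP response elements in 3.20% and 1.98%, and AP-1 letters in 5.48% and 7.76%. The 6 rising members with a window had a median GC content of 72.0%, and 5 held a GC box, as in SLC9A3-AS1. The 18 falling members with a window had 59.5%, with GC boxes in 8, CCAAT boxes in 8, TATA boxes in 2 and AP-1 letters in 2. In 39 pairs the windows of the antisense RNA and the sense gene overlapped. Of those, 37 had both genes tested, with a Pearson r of 0.340 and a Spearman rho of 0.197 between their log2 fold changes, and in 2 both genes were called. CCNT2-AS1 and ELF3-AS1 thus start in nearly the same stretch as their sense genes, but only in the second pair were both genes called.

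A set of 15 antisense RNAs chosen by name, which is not a full list of the well studied ones, held 4 that passed the test (26.7%). That compares with 39 of the 305 tested members and 17.9% of all tested genes. The set was chosen with earlier results of these data known, so its share cannot be read as a result about well studied RNAs. They were OIP5-AS1, MCM3AP-AS1, SLC9A3-AS1 and FAM83A-AS1, and SLC9A3-AS1, MCM3AP-AS1 and FAM83A-AS1 are described above. OIP5-AS1, known as Cyrano and for promoting the decay of a microRNA, had 153, 182 and 150.3 CPM in the DMSO libraries and 139, 124 and 116 CPM in the CCS1477 libraries, with a log2 fold change of -0.36 ± 0.104 (adjusted p = 0.0333). Its fall was small, the nearest DMSO and CCS1477 libraries were 150 and 139 CPM, and the call was lost without DMSO replicate 1 or 2 or CCS1477 replicate 2 or 3 (-0.39 to -0.26, adjusted p = 0.0795 to 0.149) and on log2(TPM + 1) (-0.12, adjusted p = 0.664). HOXA-AS2 and HOXA-AS3, from the HOXA cluster, had log2 fold changes of -0.73 (adjusted p = 0.11) and 0.30 (adjusted p = 0.615). LOXL1-AS1 had -0.50 and ZEB1-AS1, opposite a gene of epithelial-mesenchymal transition, had -0.50, with adjusted p of 0.105 and 0.29. FGD5-AS1 had -0.24 (adjusted p = 0.125), FOXD2-AS1 -0.36 (0.615) and TTN-AS1 0.28 (0.477). TMPO-AS1, EPB41L4A-AS1 and MAPKAPK5-AS1 were within 0.1 of 0 on the log2 scale. Without 1 library, HOXA-AS2 (without DMSO replicate 1, -0.97, adjusted p = 0.0487) and FGD5-AS1 (without DMSO replicate 3, -0.33, adjusted p = 0.0187) passed.

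Other noncoding RNA classes at the same summed count are given for comparison. Of 40 tested divergent transcripts, whose symbols end in DT, 3 rose and 3 fell. Of 132 tested intergenic RNAs with LINC symbols, 2 rose (1.52%) and 12 fell (9.09%), of 21 small nucleolar RNA host genes none rose and 1 fell, and of 3 intronic transcripts none passed. The antisense RNAs, at 3.61% and 9.18%, lay between these classes in rises and near the LINC genes in falls, and the difference between classes was not tested. Of 24 well studied noncoding genes chosen by name, 18 were tested. MIR22HG, the host of a microRNA, rose by 0.79 on the log2 scale, from 22.3 to 38.6 CPM (adjusted p = 0.00205 by edgeR). MIR31HG rose by 0.73 (adjusted p = 0.0147). CYTOR fell by 1.04, from 20.3 to 9.84 CPM (adjusted p = 0.00333), ZFAS1 by 0.54 (0.0287) and DANCR by 0.38 (0.0287). All other tested genes of this list, MALAT1, NEAT1, GAS5 and PVT1 among them, did not pass. Of all tested genes 17.9% passed. This list too was chosen by name, so its calls cannot be read as a result about well studied RNAs.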

How the data were processed

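Poly-A RNA of 6 DU145 samples, 3 with DMSO and 3 with 1 µM CCS1477, was sequenced, and groups and replicate numbers come from the sample titles. The authors deposited estimated counts, not normalized, and TPM, for 60623 genes each. Trimmomatic 0.39 is named per the submitters' processing notes. No source used here gives the aligner, quantifier, genome build or strandedness.

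Estimated counts were rounded. Genes kept by filterByExpr of edgeR 4.0.16 (minimum count 10, minimum total 15; 14928 genes) were scaled with TMM factors and compared with edgeR's quasi-likelihood test, without covariates, with Benjamini-Hochberg adjustment over all of them at 0.05. CPM use the same factors. Log2 fold changes are CCS1477 over DMSO, given with their standard error. The procedure was tested on simulated data. In R 4.3.3, alternatives used DESeq2 1.42.0 on the rounded counts and limma 3.58.1 on log2 values of the deposited TPM plus 1 or 0.1. Exon overlaps come from GENCODE 29, and start windows from RefSeq (GRCh38.p14). Coordinates of genes are printed as the files give them. Where a symbol had several rows, the one with the highest sum served as sense gene.

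The members and lists were chosen with earlier results of these data known. Named are up to 10 members with the largest change in each direction among those past the threshold whose groups do not overlap, the 6 with the highest mean TPM, a fixed set of well studied antisense RNAs, their sense genes, and pairs with both genes past the threshold.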

Additional observations from a re-analysis of the deposited data

How the results depend on the processing

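The main counts were 11 members higher and 28 lower, with a median log2 fold change of -0.08. They were 6 and 10 by limma on log2(TPM + 1) and also on log2(TPM + 0.1), 7 and 13 at an adjusted p of 0.01, and 17 and 29 without a filter. Among the 48 tested members without exon overlap on the opposite strand they were 1 and 5, with a median of -0.35. Leaving out 1 library gave 7 to 18 higher and 15 to 27 lower. The shares over all tested genes moved too, to 3.16% to 8.55% higher and 6.08% to 11.6% lower without 1 library. By limma these all-gene shares were 1.96% and 2.86% on log2(TPM + 1) and 1.88% and 2.75% on log2(TPM + 0.1). Sense genes, 24 higher and 29 lower, came to 10 and 9 on log2(TPM + 1), 11 and 9 on log2(TPM + 0.1) and 13 higher at 0.01. Without 1 library 16 to 28 were higher and 22 to 40 lower. The ratio separated 52 of 267 pairs, namely 15 of the 51 without shared exon bases and 37 of the 216 with them. It separated 63 of the 267 on log CPM with TMM factors and 74 to 87 without 1 library. The correlation of 0.504 was 0.413 on log2(TPM + 0.1), 0.479 without shared exon bases, 0.402 without PAPPA-AS1 and FAM83A-AS1 (chosen after seeing the data) and 0.450 to 0.510 without 1 library. Fewer genes or samples enter some of these. Elsewhere the cause was not tested. No named member that passed the test changed sign under these settings, but 6 of those that did not pass did. With 1 library left out, log2 fold changes ran from -0.16 to 0.29 in MAPKAPK5-AS1, -0.12 to 0.0095 in PCBP1-AS1, -0.084 to 0.039 in PXN-AS1, -0.25 to 0.13 in TMPO-AS1, -0.10 to 0.26 in VIM-AS1 and -0.039 to 0.51 in HOXA-AS3. On log2(TPM + 1) and log2(TPM + 0.1), MAPKAPK5-AS1 was at -0.067 and -0.070, PCBP1-AS1 at 0.0011 on both and PXN-AS1 at 0.0032 and 0.0034. With library size scaling PXN-AS1 was at 0.027. The member median was 0.0036 at a minimum count of 30.

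Of the 39 calls, 16 (7 higher and 9 lower) held under all 12 count-based settings. With the replicate number as a block 10 were higher and 20 lower, all among the main calls. Over all tested genes the shares were then 5.35% and 8.75%. Samples with the same number did not deviate together (correlations of -0.09, -0.20 and -0.01 between their deviations from group means). These values give no sign of pairing by number. They cannot exclude it, because samples with different numbers were not compared and the labels do not say.

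Depth limits the lower part of the list: 11 members were not tested, and several falls reached the floor of 3 counts in CCS1477 libraries.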
